A study of Mus musculus with 12 samples.

Results

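The kidney, with the liver, makes glucose from lactate, glutamine and glycerol. The 9 genes described here encode steps of this pathway, gluconeogenesis, and the first step of fructose breakdown: Pcx, Pck1, Pck2, Fbp1, Fbp2, G6pc, Slc37a4, Slc2a2 and Khk. They were chosen by name, and all array probes that carry one of these names and are not controls were taken. That gave 12 probes for the 9 genes, out of 56605 probes on the array, and all 9 genes were among the 25948 genes and transcripts tested. Pck2, Slc37a4 and Khk had 2 probes each.

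The data are one-colour Agilent array measurements of whole-kidney RNA from 12 mice, 3 per group. KO IRI and KO sham mice are Jaml knockouts, and WT IRI and WT sham mice are wild type. IRI mice had the blood flow to both kidneys stopped and then restored, and sham mice were operated on without this step. Kidneys of IRI mice were taken 24 h after reperfusion, and the sample labels give no time for sham mice. All mice were male on a background labelled C57/6J, and all were given pentobarbital at 30 mg per kg before surgery, per the series text. Ischemia is given as 40 min in that text but as 30 min in the protocol, and which applied is not settled. How Jaml was deleted, and the ages of the mice, are not given in the sources used here. The 3 samples of a group are described as independent, so an array is taken as 1 animal.

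In gluconeogenesis, pyruvate carboxylase and then phosphoenolpyruvate carboxykinase turn pyruvate into phosphoenolpyruvate, fructose-1,6-bisphosphatase removes a phosphate further up, and glucose-6-phosphatase frees glucose inside the endoplasmic reticulum. In the kidney these enzymes lie mainly in the proximal tubule, the segment that IRI damages most. Ketohexokinase, which starts fructose breakdown, is found in the same cells. Levels below are log2 processed signals minus the 75th percentile of the array, so a difference of 1 is a doubling of signal, and levels of different genes cannot be ranked because each probe binds with its own strength.

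The targeted gene was checked first. Jaml, a leukocyte adhesion protein, had levels of -1.89, -2.70 and -3 in KO IRI kidneys, -3.54, -2.59 and -3.18 in KO sham kidneys, 0.55, -1.80 and -1.64 in WT IRI kidneys and -0.26, -0.26 and -0.44 in WT sham kidneys. It was lower in every KO than in every WT array of the same surgery, with a difference of -2.79 ± 0.56 (adjusted p = 0.0152) in sham and -1.57 ± 0.56 (adjusted p = 0.153) in IRI kidneys, from limma's fit over all genes with Benjamini-Hochberg adjustment. The IRI difference was -0.81 (adjusted p = 0.229) without WT IRI 1. Whether its probe lies in the deleted part is not given. WT IRI 1 stood apart from its group, with a root mean square deviation from the group mean of 0.579 log2 units over all genes, against 0.205 to 0.433 on the other arrays. Values without it are given for Jaml, G6pc and Slc2a2. Computed after seeing the data, counts without it follow for WT changes after IRI in lists where it moved them by more than 1.5 times. Some counts for comparisons that do not use this array are also given, because it enters the spread of every test. All 6 KO arrays were on 1 slide and all 6 WT arrays on another, so genotype and slide cannot be told apart, while IRI and sham kidneys of a genotype share a slide.

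Proximal tubule marker genes, which report on the cells that hold this pathway, moved with injury. The mean level of 20 such markers lay between 5.69 and 5.94 in KO IRI kidneys, against 6.58 and 6.76 in KO sham kidneys, and between 5.41 and 5.83 in WT IRI kidneys, against 6.13 and 6.39 in WT sham kidneys. Of the 20 markers, all detected, 7 fell in KO IRI and 5 fell in WT IRI kidneys, each against its own sham group, and none rose, where 4.05% of all genes fell in KO and 5.90% in WT kidneys. Without WT IRI 1, 14 fell in KO kidneys, and 8 fell and 1 rose in WT kidneys. In whole-kidney RNA, fewer tubule cells and less RNA per cell cannot be told apart. The part of this shift in the results below was not tested.

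After IRI, 1 of the 9 genes passed the test in KO kidneys and none did in WT kidneys. G6pc fell in KO kidneys, to 0.238 times its sham signal. Among all 25948 genes, 6.16% passed the threshold of 0.05 in KO IRI against KO sham and 12.0% in WT IRI against WT sham, so counts of 1 and 0 among 9 genes are near the background and say little of the 9 as a set. Without WT IRI 1 in the fit, which also sets the spread for the KO comparison, 2 fell in KO kidneys (G6pc and Fbp1) and 1 in WT kidneys (G6pc). The median log2 change of the 9 genes was -0.14 in KO and -0.05 in WT kidneys, beside medians of -0.08 and -0.01 over all genes. In KO kidneys the IRI and sham arrays did not overlap for 4 of the 9 genes, beside 35.7% of all genes. In WT kidneys they did not overlap for 2 of the 9, beside 32.3% of all genes.

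**Figure D1:**
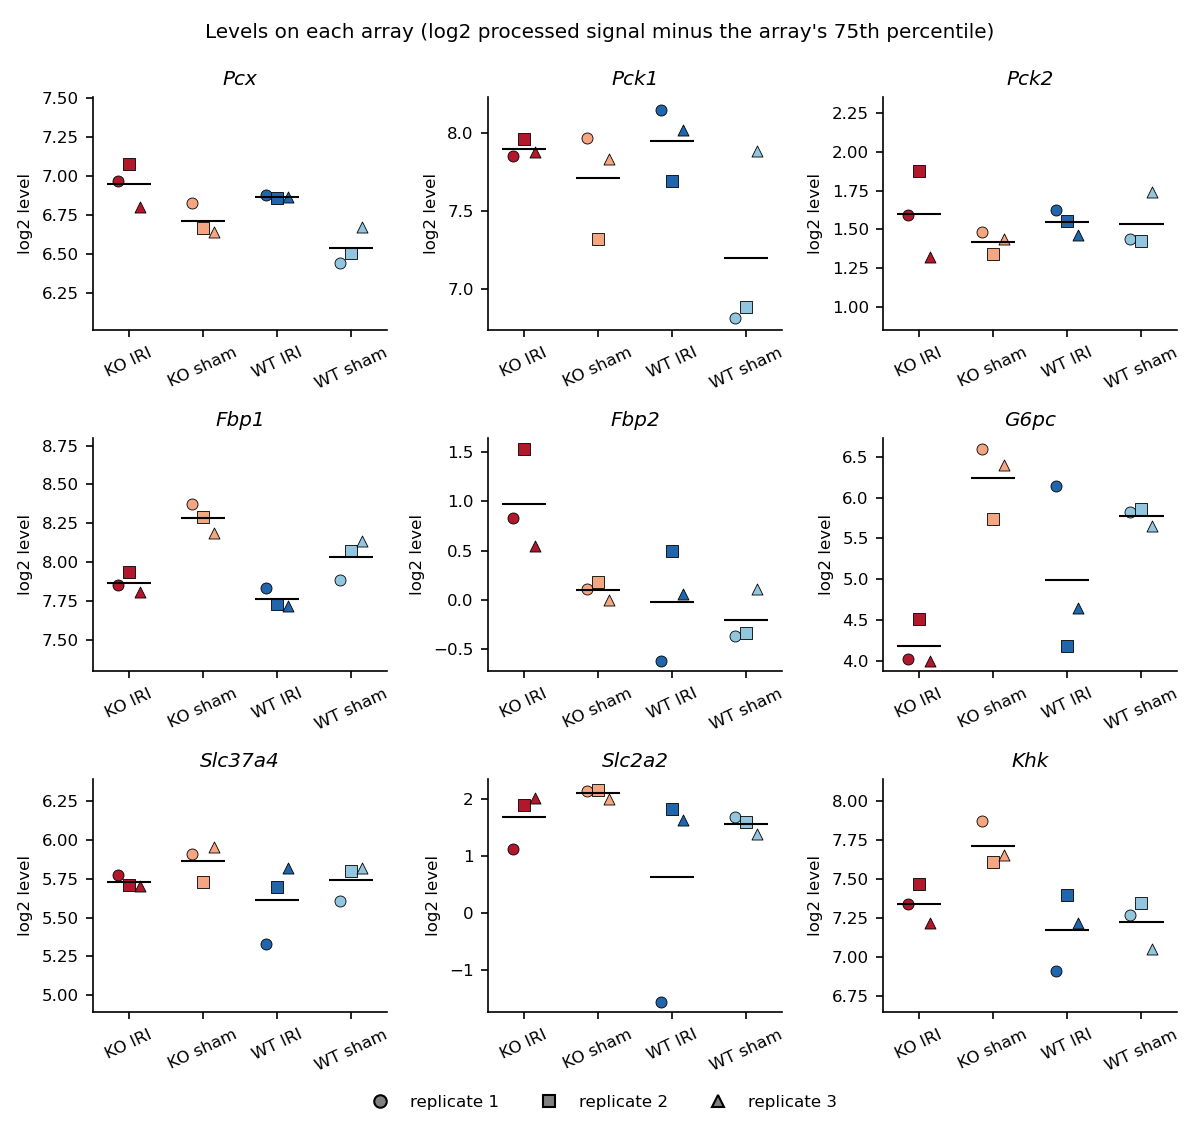
Level of each of the 9 genes on each of the 12 arrays (log2 processed signal minus the array's 75th percentile, with its own vertical scale per gene). Points are arrays, shapes are replicate numbers and bars are group means. G6pc lies between 4.001 and 4.51 in all 3 KO IRI kidneys and between 5.74 and 6.60 in KO sham kidneys, and Slc2a2 is at -1.55 on WT IRI 1 alone.

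G6pc encodes the catalytic subunit of glucose-6-phosphatase, the last enzyme of gluconeogenesis and of glycogen breakdown to free glucose. Its level was 4.02, 4.51 and 4.001 in KO IRI kidneys, against 6.60, 5.74 and 6.40 in KO sham kidneys. All 3 injured KO kidneys were below all 3 sham KO kidneys, with a gap larger than the range within either group. The change was -2.07 ± 0.43 (adjusted p = 0.0213), 95% interval -3.02 to -1.12, a fold of 0.238. It placed 769th by p-value among the 25948 genes. In WT kidneys the level was 6.14, 4.19 and 4.65 after IRI, against 5.82, 5.87 and 5.65 after sham surgery. WT IRI 2 and 3 were below every WT sham kidney, and WT IRI 1 was above all of them. In order of group means, G6pc was at 6.25 ± 0.45 in KO sham, 5.78 ± 0.11 in WT sham, 4.99 ± 1.02 in WT IRI and 4.18 ± 0.29 in KO IRI kidneys (SD, n = 3 each), and no neighbours in this order passed a test of their difference.

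The WT change was -0.79 ± 0.43 (adjusted p = 0.252), 95% interval -1.74 to 0.16, and did not pass. Without WT IRI 1 it was -1.36, with an adjusted p of 0.0138. The difference between the responses, KO minus WT, was -1.28 ± 0.60 (adjusted p = 0.516), 95% interval -2.62 to 0.06, and -0.71 (adjusted p = 0.443) without WT IRI 1, so a larger fall in KO than in WT kidneys was not shown, and 0.0694% of all genes passed that test. G6pc passed in 18 of 22 alternative analyses of the KO comparison, between -2.32 and -1.89. It missed the threshold without KO sham 1, KO sham 3, KO IRI 1 or KO IRI 3, where its change lay between -1.995 and -1.89 with adjusted p-values from 0.0649 to 0.087.

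**Figure D2:**
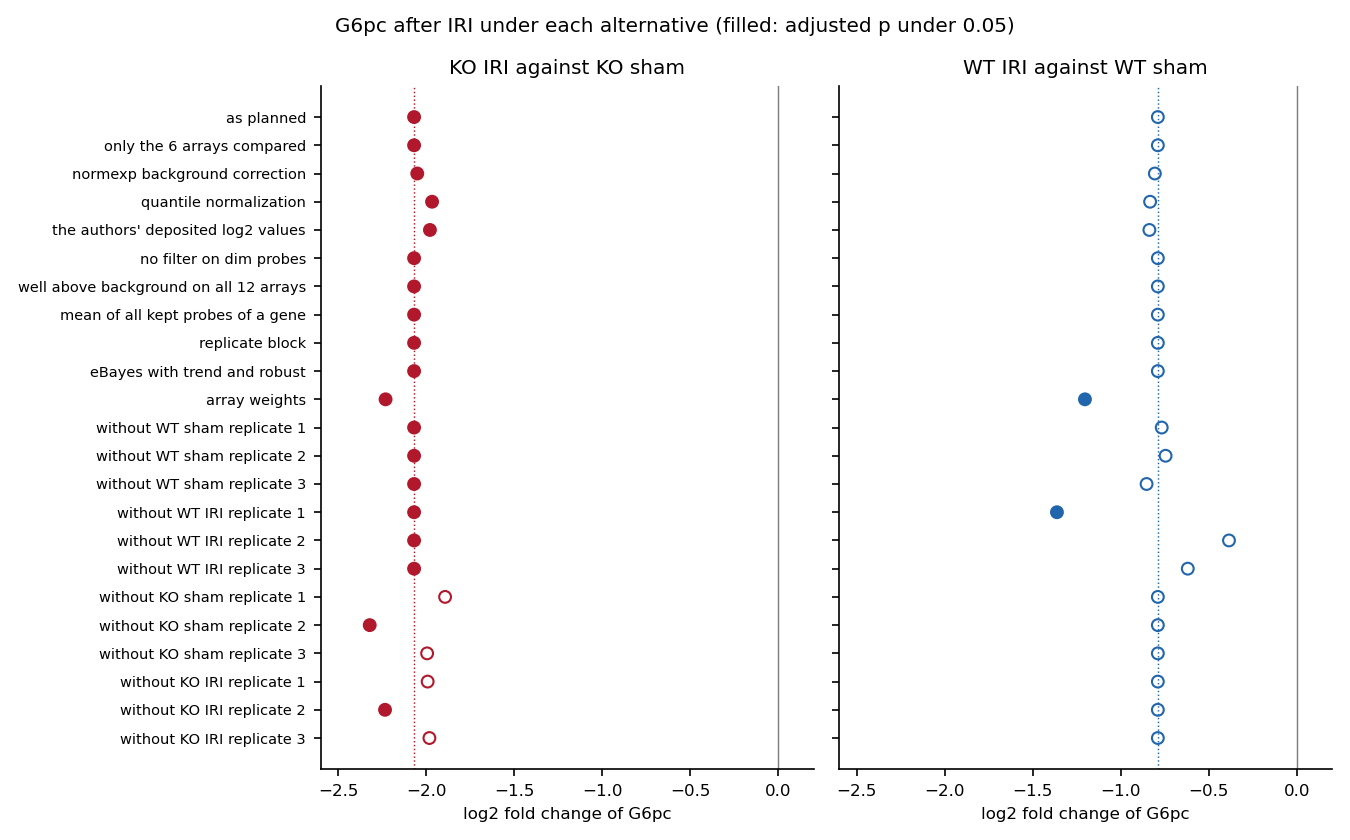
Log2 fold change of G6pc after IRI in KO kidneys (left) and WT kidneys (right) under the planned analysis and each of 22 alternatives, with filled points where the adjusted p is under 0.05 and a dotted line at the planned value. The KO values stay between -2.32 and -1.89, and the WT values range between -1.36 and -0.39.

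The windows just before the start sites of G6pc and Pck1 are shown because their expression is classically switched by fasting hormones and insulin. They are the 250 bases before the start in RefSeq's promoter table for GRCm38.p6, on the plus strand, at chr11:101367466-101367715 for G6pc and chr2:173152823-173153072 for Pck1. Capitals mark matches, on either strand, to the TATA box TATAAA, the CCAAT box, or TGACG, the core of the cyclic AMP response element.
G6pc: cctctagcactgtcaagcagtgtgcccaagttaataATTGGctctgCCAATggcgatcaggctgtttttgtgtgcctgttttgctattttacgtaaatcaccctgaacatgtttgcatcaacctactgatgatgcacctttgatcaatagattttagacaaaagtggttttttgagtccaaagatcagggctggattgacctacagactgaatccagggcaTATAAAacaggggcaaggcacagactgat
Pck1: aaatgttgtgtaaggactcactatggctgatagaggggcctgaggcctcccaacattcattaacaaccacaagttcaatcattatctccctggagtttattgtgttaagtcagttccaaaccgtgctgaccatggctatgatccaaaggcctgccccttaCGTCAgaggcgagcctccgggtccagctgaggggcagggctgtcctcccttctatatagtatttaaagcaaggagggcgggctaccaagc
In G6pc the TATA box began at position -29 from the start, and CCAAT was present at -214 (minus strand) and -204. In Pck1 the TGACG core was found on the minus strand at -90.

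All 9 genes were in RefSeq's promoter table, with 12 windows. TGACG was present in 5 of the 12, from Pck1, Khk, Slc37a4 and Fbp2, beside 17.8% of the 32851 windows in the table. TATAAA was present in 2 of the 12, from G6pc and Slc37a4, beside 12.4%. CCAAT was found in 5 of the 12, from Slc2a2, G6pc, Fbp1, Pck2 and Pcx, beside 33.8% of windows. The full cyclic AMP response element TGACGTCA is held by 1.5% of windows, the forkhead motif GTAAACA by 3.2% and the HNF4 motif CAAAGTCCA by 0.384%. None of the 12 windows held one of these exact strings. The glucocorticoid response element and the HNF1 motif, also searched by exact letters, were each found in 0.009% of windows and in none of the 12. Variant sites with other letters could not be found by this search. Whether the windows of G6pc and the other genes hold such sites was not tested.

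Slc37a4 encodes the transporter that brings glucose-6-phosphate to glucose-6-phosphatase in the endoplasmic reticulum. Its level was 5.77, 5.71 and 5.70 in KO IRI kidneys, 5.91, 5.73 and 5.95 in KO sham kidneys, 5.33, 5.70 and 5.82 in WT IRI kidneys and 5.61, 5.80 and 5.82 in WT sham kidneys. The 4 groups overlapped. The changes after IRI were -0.14 ± 0.14 (adjusted p = 0.635) in KO and -0.13 ± 0.14 (adjusted p = 0.584) in WT kidneys. Its 95% intervals, -0.45 to 0.18 in KO and -0.44 to 0.18 in WT kidneys, leave out falls of the size seen for G6pc in KO kidneys. A second Slc37a4 probe, from a cDNA clone, was dim, with signals of 42.3 to 128, against 28200 to 50100 for the probe used above. It was 0.89 ± 0.26 higher in KO sham than in WT sham kidneys, with an adjusted p of 0.0705 over all probes. The brighter probe gave 0.12 ± 0.14 (adjusted p = 0.664) in the same comparison. Slc37a4 lies on chromosome 9 near Jaml, with 704 kb between their nearest probes in mm9.

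Slc2a2 encodes GLUT2, the transporter that lets glucose out of the proximal tubule cell. It had levels of 1.13, 1.90 and 2.01 in KO IRI kidneys, 2.14, 2.16 and 1.995 in KO sham kidneys, -1.55, 1.83 and 1.64 in WT IRI kidneys and 1.68, 1.61 and 1.39 in WT sham kidneys. On WT IRI 1 it was 3.19 log2 units below the nearest other WT IRI array. Gaps as large were found there for 60 genes in the low direction and 38 in the high direction, of 25943. The WT change after IRI was -0.92 ± 0.72 (adjusted p = 0.43) with that array and 0.17 (adjusted p = 0.67) without it. The KO change was -0.42 ± 0.72 (adjusted p = 0.795).

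The Slc2a2 probe is shown because this low value rests on it alone. Its 60 bases are at chr3:28625253-28625961 in mm9, on the plus strand, a span of 709 bases, so its match is split, as for a probe that crosses an exon junction. The Fbp2 probe, of 60 bases, is likewise split over 4516 bases, at chr13:62950852-62955367 on the minus strand, and belongs to the gene with the largest positive change in KO IRI kidneys among the 9. Both sequences are from the array files.
Slc2a2 probe: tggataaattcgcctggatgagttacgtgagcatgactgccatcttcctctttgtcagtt
Fbp2 probe: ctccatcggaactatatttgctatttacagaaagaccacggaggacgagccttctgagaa
Both probes were well above background on all 12 arrays.

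Fbp1 and Fbp2 encode fructose-1,6-bisphosphatases, Fbp1 the form of liver and kidney and Fbp2 that of muscle. Fbp1 was at 7.86, 7.94 and 7.81 in KO IRI kidneys, against 8.37, 8.29 and 8.19 in KO sham kidneys. In WT kidneys it was at 7.84, 7.73 and 7.72 after IRI, against 7.89, 8.07 and 8.13 after sham surgery. In both genotypes every IRI array was below every sham array. The changes were -0.42 ± 0.11 (adjusted p = 0.0512) in KO and -0.27 ± 0.11 (adjusted p = 0.136) in WT kidneys, and neither passed. In 5 of 22 alternatives the KO change passed, and with quantile normalization it was -0.24 (adjusted p = 0.299).

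Fbp2 had levels of 0.83, 1.53 and 0.55 in KO IRI kidneys, 0.11, 0.19 and 0.00 in KO sham kidneys, -0.62, 0.50 and 0.06 in WT IRI kidneys and -0.37, -0.34 and 0.11 in WT sham kidneys. All 3 KO IRI kidneys were above all 9 others. The change was 0.87 ± 0.30 (adjusted p = 0.131) against KO sham and 0.99 ± 0.30 (adjusted p = 0.116) against WT IRI, and neither passed. Skeletal muscle markers, of which 8 of 10 were detected and Ckm and Myh1 were not, had mean levels of -3.62 to -3.35 in KO IRI kidneys, against -3.40 to -3.17 in KO sham kidneys. One of them, Pvalb, also marks the distal tubule and fell by 2.64 in KO IRI kidneys. Without Pvalb, a choice made after seeing the data, the mean levels of the other 7 were -4.14 to -3.81 in KO IRI kidneys, against -4.30 to -3.99 in KO sham kidneys, and 5 of the 7 had values above 0 but none passed. The largest of these values, 0.60, was that of Mb, which was well above background on no KO array. The part of these markers in the Fbp2 values was not tested.

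Pcx encodes pyruvate carboxylase, the mitochondrial enzyme that makes oxaloacetate. It was at 6.97, 7.08 and 6.80 in KO IRI kidneys, 6.83, 6.66 and 6.64 in KO sham kidneys, 6.88, 6.86 and 6.86 in WT IRI kidneys and 6.44, 6.51 and 6.67 in WT sham kidneys. Every WT IRI kidney was above every WT sham kidney, while the KO groups overlapped. The changes were 0.33 ± 0.12 (adjusted p = 0.0919) in WT and 0.24 ± 0.12 (adjusted p = 0.273) in KO kidneys.

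Pck1 and Pck2 encode the cytosolic and the mitochondrial phosphoenolpyruvate carboxykinase. Pck1 was at 7.86, 7.96 and 7.88 in KO IRI kidneys, 7.97, 7.32 and 7.84 in KO sham kidneys, 8.15, 7.69 and 8.02 in WT IRI kidneys and 6.82, 6.88 and 7.89 in WT sham kidneys. WT sham 1 and 2 were low and WT sham 3 stood with the other 3 groups. The WT change after IRI was 0.76 ± 0.28 (adjusted p = 0.103) with all arrays and 1.11 (adjusted p = 0.0135) without WT sham 3. That array also stood apart in other markers. Its T and NK cell marker level was -1.34, against 1.30 and 1.32 on WT sham 1 and 2. Its neutrophil marker level was 1.16, against -0.63 and -0.48, and its injured tubule marker level 2.24, against 1.64 and 1.44. The part of these in the Pck1 result was not tested. In KO kidneys the change was 0.19 ± 0.28 (adjusted p = 0.758). The Pck1 probe is among the brightest, between 21st and 306th of 56605 on each array, and no array flagged it as saturated. The Fbp1 probe is brighter still, between 12th and 104th, and was not flagged either. Whether changes are compressed at such signals was not tested.

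Pck1 is also strongly expressed in fat cells. Adipose markers averaged -0.73 to 1.32 in WT IRI kidneys, against -2.81 to -1.32 in WT sham kidneys, and WT sham 3, at -2.28, lay between the other 2 sham arrays. Of the 10 markers, 3 rose (Cidec, Plin1 and Fabp4) and none fell, where 6.07% of all genes rose. In all, 8 had changes above 0, while Lep and Pparg were at -0.06 and -0.05. The part of fat in the Pck1 values was not tested. Pck2 was at 1.60, 1.88 and 1.32 in KO IRI, 1.48, 1.34 and 1.44 in KO sham, 1.63, 1.55 and 1.47 in WT IRI and 1.44, 1.43 and 1.74 in WT sham kidneys, with all groups overlapping. Its changes after IRI were 0.18 ± 0.15 (adjusted p = 0.555) in KO and 0.01 ± 0.15 (adjusted p = 0.968) in WT kidneys. A second, dimmer Pck2 probe was -0.61 ± 0.17 in WT IRI against WT sham, with an adjusted p of 0.0502 over all probes.

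Khk encodes ketohexokinase, which phosphorylates fructose. It was at 7.34, 7.47 and 7.22 in KO IRI kidneys, against 7.88, 7.61 and 7.65 in KO sham kidneys, and at 6.91, 7.40 and 7.22 in WT IRI kidneys, against 7.27, 7.35 and 7.05 in WT sham kidneys. KO sham kidneys were above the other 9. The change after IRI was -0.37 ± 0.15 (adjusted p = 0.196) in KO and -0.05 ± 0.15 (adjusted p = 0.872) in WT kidneys. A second Khk probe, for a predicted transcript, gave -0.61 ± 0.21 in KO and -0.24 ± 0.21 in WT kidneys, and again had KO sham kidneys above the other 9. It passed in none of these comparisons.

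**Figure D3:**
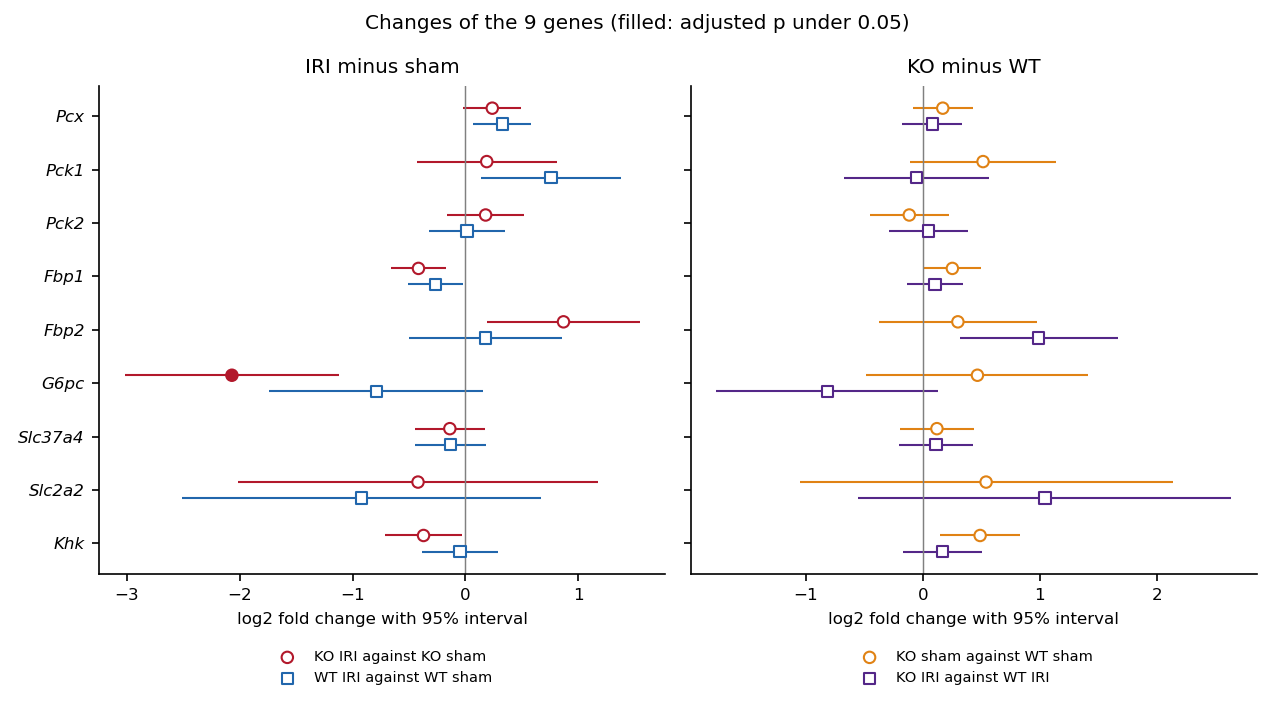
Log2 fold change with 95% interval of each of the 9 genes. The left panel has KO IRI against KO sham (circles) and WT IRI against WT sham (squares), and the right panel has KO sham against WT sham (circles) and KO IRI against WT IRI (squares). The only filled point, with an adjusted p under 0.05, is G6pc in KO IRI against KO sham, at -2.07.

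No gene of the 9 passed in KO against WT kidneys of the same surgery, where 8.85% of all genes passed in sham and 1.93% in IRI kidneys. In sham kidneys 8 of the 9 values were above 0 in KO against WT, with a median of 0.30, beside 0.13 over all genes. The 20 proximal tubule markers were all above 0 in the same comparison, with a median of 0.32, and 1 of them was higher, at mean levels of 6.58 to 6.76 in KO sham, against 6.13 to 6.39 in WT sham kidneys. Their part in the values of the 9 genes was not tested. With quantile normalization the 8 genes stayed above 0 but lower, from 0.04 for Pcx to 0.51 for Slc2a2, beside 0.17 and 0.54 as planned. Fbp1, Slc2a2 and Khk did not overlap between the sham groups, with all 3 higher in KO, beside 42.7% of all genes. Their differences were 0.25 ± 0.11 (adjusted p = 0.184), 0.54 ± 0.72 (adjusted p = 0.709) and 0.49 ± 0.15 (adjusted p = 0.076). The error of Slc2a2 includes the spread of WT IRI kidneys. Its SD was 1.90 there, against 0.09 in KO sham and 0.15 in WT sham kidneys. Khk passed without WT IRI 1 in the fit, at an adjusted p of 0.0276. Slc2a2 did not, at 0.111, but it passed with only the 6 arrays compared, at 0.0322. Pck1 was 0.52 higher in KO sham than in WT sham kidneys (adjusted p = 0.295), and 0.86 (adjusted p = 0.0442) without WT sham 3. In IRI kidneys Fbp2 alone did not overlap, beside 21.8% of all genes, and the median over the 9 genes was 0.10, beside 0.04. G6pc was -0.81 in KO IRI against WT IRI (adjusted p = 0.29), with the KO IRI range of 4.001 to 4.51 overlapping the WT IRI range of 4.19 to 6.14, and -0.24 (adjusted p = 0.659) without WT IRI 1. None of the 9 passed the test of unequal responses. Markers of injured tubules and of immune cells also differed between genotypes. Injured tubule markers had mean levels of 0.67 to 0.86 in KO sham, against 1.44 to 2.24 in WT sham kidneys, and 2.30 to 3.51 in KO IRI, against 3.88 to 4.59 in WT IRI kidneys, and of the 10 markers 3 were lower in KO sham and 1 (none without WT IRI 1) in KO IRI. In KO sham against WT sham, 5 of 8 T and NK cell markers were lower, with a median of -2.76. The mean level of the 8 was 1.30 and 1.32 on WT sham 1 and 2 but -1.34 on WT sham 3. It lay between -2.54 and -1.52 in KO sham kidneys. Also lower were 3 of 6 neutrophil markers, with a median of -1.71, and 3 of 8 macrophage and monocyte markers, with a median of -1.17. None of these immune markers was higher, where 3.73% of all genes were lower. In KO IRI against WT IRI, 2 of the 6 neutrophil markers were lower, with a median of -2.43, and none of the T and NK cell or macrophage and monocyte markers passed, where 1.02% of all genes were lower. Their part in these differences was not tested.

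Across the 12 arrays, which share groups and slides, G6pc and Fbp1 had a Pearson r of 0.722, Pck1 and Pcx one of 0.798, Slc2a2 and Slc37a4 one of 0.782, and G6pc and Fbp2 one of -0.685. Among the tested genes with an ordinary symbol, the patterns most like G6pc were those of Glb1l (0.961), Dlx3 (0.96) and Fhl1 (0.959). Those most like Fbp1 were Pmpcb (0.964), Gcdh (0.963) and Mccc1 (0.962). Those most like Pck1 were Mpp6 (0.951), Scmh1 (0.947) and Tgfa (0.937), and those most like Khk were Spp2 (0.974), Marchf10 (0.96) and Dgkz (0.959).

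Genes around the pathway were counted in the same fit. Of 26 genes of glycolysis, 2 rose and none fell in KO IRI against KO sham, and 7 rose and none fell in WT IRI against WT sham, where 2.10% of all genes rose in KO and 6.07% in WT kidneys. These shares, and the falls of 4.05% and 5.90% given above, also apply to the lists that follow. Pklr, the liver-type pyruvate kinase, rose by 1.64 ± 0.32 (adjusted p = 0.0166) in KO and by 1.997 ± 0.32 (adjusted p = 0.0064) in WT kidneys, at -0.43, -0.23 and 0.32 in KO IRI, against -1.60, -1.90 and -1.75 in KO sham kidneys. Pfkfb1, which makes and breaks the regulator fructose-2,6-bisphosphate, rose by 0.82 ± 0.18 (adjusted p = 0.0248) in KO and 1.40 ± 0.18 (adjusted p = 0.00239) in WT kidneys. Hexokinase gene Hk2 rose by 2.36 ± 0.36 (adjusted p = 0.00567) in WT kidneys, while its KO change was 0.58 ± 0.36 (adjusted p = 0.403). Hk2 was at -4.06, -4.69 and -3.08 in KO IRI kidneys, against -1.74, -0.91 and -1.31 in WT IRI kidneys, a difference of -2.62 ± 0.36 (adjusted p = 0.0101). In all, 5 of the 26 were lower in KO IRI than in WT IRI kidneys and none was higher, where 1.02% of all genes were lower and 0.910% higher. In sham kidneys 3 were higher and 2 lower in KO, where 5.12% of all genes were higher and 3.73% lower. No gene of any list passed the test of unequal responses. The list medians after IRI were -0.12 in KO and 0.18 in WT kidneys.

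Genes that feed gluconeogenesis moved both ways. Of 26 detected of 27, 2 rose and 4 fell in KO IRI against KO sham, and 4 rose and 5 fell in WT IRI against WT sham, with list medians of -0.14 and 0.06. Without WT IRI 1 in the fit, 3 rose and 7 fell in KO kidneys, and 7 rose and 5 fell in WT kidneys. Slc38a3 takes up glutamine across the basolateral membrane. It was at 3.74, 3.72 and 3.88 in KO IRI, against 1.58, 1.62 and 1.52 in KO sham kidneys, and at 2.54, 3.15 and 3.44 in WT IRI, against 1.17, 1.101 and 1.45 in WT sham kidneys. It rose by 2.21 ± 0.20 (adjusted p = 0.00113) in KO and 1.80 ± 0.20 (adjusted p = 0.0014) in WT kidneys. Glud1, glutamate dehydrogenase, rose by 0.95 ± 0.18 (adjusted p = 0.0154) in KO and 0.94 ± 0.18 (adjusted p = 0.0125) in WT kidneys. Slc5a8, a sodium-coupled carrier of lactate and other monocarboxylates, fell, at -1.43 in KO (adjusted p = 0.00522) and -0.80 in WT kidneys (adjusted p = 0.0319). Mdh1, the cytosolic malate dehydrogenase, fell by 0.59 in KO (adjusted p = 0.0191) and 0.44 in WT kidneys (adjusted p = 0.039). Slc16a7, a monocarboxylate transporter, fell by 1.65 in WT kidneys (adjusted p = 0.0151), and its KO change was -0.59 (adjusted p = 0.348). In sham kidneys Gpt, Slc5a8 and Mdh2 were higher in KO than in WT and none was lower, and in IRI kidneys none of the list passed. With WT IRI 1 left out of the fit, 8 were higher and 1 was lower in KO sham than in WT sham kidneys.

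Of 10 other genes of fructose, polyol and glucose uptake, 3 fell and none rose in KO IRI against KO sham, and 2 fell and none rose in WT IRI against WT sham, with list medians of -0.60 and -0.26. Without WT IRI 1, 5 fell and none rose in KO kidneys, and 2 fell and 1 rose in WT kidneys. Sord, sorbitol dehydrogenase, which makes fructose, fell by 0.64 ± 0.16 in KO (adjusted p = 0.0397) and by 0.81 ± 0.16 in WT kidneys (adjusted p = 0.0128). Slc5a9, a sodium-coupled sugar carrier, fell by 0.99 in KO (adjusted p = 0.0174) and 0.86 in WT kidneys (adjusted p = 0.0211). Slc5a2, the SGLT2 glucose carrier of the early proximal tubule, was at 5.81, 5.95 and 5.43 in KO IRI, against 6.70, 6.72 and 6.37 in KO sham kidneys, and fell by 0.86 (adjusted p = 0.025). In WT kidneys its change was -0.10 (adjusted p = 0.765). In sham kidneys Slc5a2 and Slc2a9 were higher in KO than in WT, by 0.83 (adjusted p = 0.0248) and 0.68 (adjusted p = 0.0356). With WT IRI 1 left out of the fit, 4 of the 10 were higher and none was lower in that comparison.

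Of 18 detected of 20 regulators of the pathway's transcription, 1 fell in KO IRI against KO sham and 3 fell in WT IRI against WT sham, and none rose, with list medians of 0.02 and -0.30. In WT kidneys 7 fell and 1 rose without WT IRI 1. Nr3c1, the glucocorticoid receptor, fell in both, by 0.73 in KO (adjusted p = 0.0143) and 0.54 in WT kidneys (adjusted p = 0.0289). Ppargc1a, a coactivator of mitochondrial and gluconeogenic genes, was at 3.27, 3.51 and 3.20 in KO IRI, against 3.40, 3.42 and 3.23 in KO sham kidneys, a change of -0.02 ± 0.25 (adjusted p = 0.974). It was at 1.93, 3.02 and 2.90 in WT IRI, against 3.82, 3.81 and 3.61 in WT sham kidneys, and fell by 1.13 ± 0.25 (adjusted p = 0.019). Irs1, an insulin receptor substrate, fell by 1.23 in WT kidneys (adjusted p = 0.00556).

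Of 10 other phosphatase, isoenzyme and glycogen genes, 1 rose and 1 fell in each genotype, with list medians of 0.10 in KO and 0.17 in WT kidneys. Without WT IRI 1, 3 rose and 1 fell in WT kidneys. Gys2, a glycogen synthase, was at -0.01, 0.64 and 0.43 in KO IRI, against 3.15, 2.94 and 2.99 in KO sham kidneys, and at 0.08, 0.12 and -1.46 in WT IRI, against 2.60, 2.58 and 1.90 in WT sham kidneys. It fell by 2.67 ± 0.39 (adjusted p = 0.00544) in KO and 2.78 ± 0.39 (adjusted p = 0.0037) in WT kidneys. Pgm2 rose by 0.77 in KO (adjusted p = 0.0343) and 1.19 in WT kidneys (adjusted p = 0.00537).

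**Figure D4:**
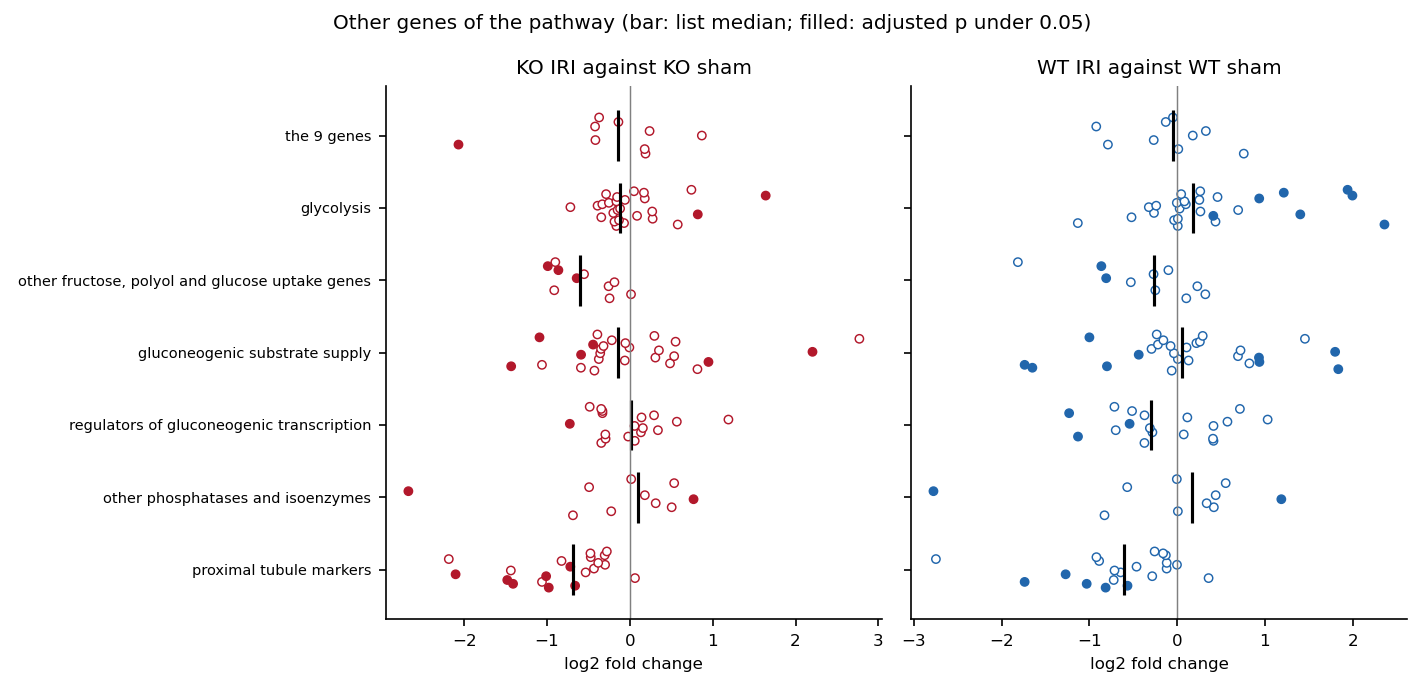
Log2 fold change of each detected gene after IRI in KO kidneys (left) and WT kidneys (right), by list, with a bar at each list's median and filled points where the adjusted p is under 0.05. The 9 genes have medians of -0.14 in KO and -0.05 in WT kidneys, and the proximal tubule markers have medians of -0.69 and -0.61.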

How the data were processed

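Total kidney RNA was hybridised to one-colour arrays. Each deposited scanner file holds spot intensity values. Per the file headers, Feature Extraction 10.7.1.1 made them with a background correction and without scaling between arrays. The deposited table of the authors holds their log2 values. The submitters' processing notes name limma.

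Control spots and outlier flags were left out and spots of a probe were averaged. The log2 processed signal was reduced by the array's 75th percentile. A probe was kept if well above background on at least 3 of 12 arrays (39450 of 56605 probes), and the kept probe with the highest mean stood for its gene. Symbols came from RefSeq (GRCm38.p6) by accession for 32994 probes, and 23611 kept the name in the file. limma 3.58.1 in R 4.3.3 fitted 1 coefficient per group over 12 arrays. All tests were two-sided, and p-values were adjusted over 25948 genes by Benjamini-Hochberg, at a threshold of 0.05. Errors are standard errors, with n = 3 per group. The p-values set a group difference against the spread between arrays within groups, estimated over all 4 groups and moderated across genes. The fit was tested on simulated data. From 35598 to 38526 probes per array were well above background, and 3 arrays per group limit the precision.

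The 9 genes and the lists around them were chosen with earlier results of these data known. All 9 are named. Each list is given by its counts and median, and at most 4 genes that passed, with the lowest adjusted p, are named per list and comparison. Some genes that this rule takes are not reported here. Patterns most alike are the 3 genes with the highest Pearson r over 12 arrays, among genes with an ordinary symbol. Clone, predicted-gene and accession-like names were left out of that search. Alternatives changed the normalization, filter, probe choice, variance model and arrays used.

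Replicate numbers are shared by the groups in the labels, but nothing there says that they mark a litter or day. Deviations of same-numbered arrays from their group means correlated between -0.267 and 0.151, and those of arrays with other numbers between -0.262 and 0.271.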

Additional observations from a re-analysis of the deposited data

How the results depend on the processing

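The fall of G6pc in KO IRI kidneys kept its direction in all 22 alternatives and its call in 18. With the replicate block it stayed at -2.07 (adjusted p = 0.0318), and the block changed no call among the 9 genes. Same-numbered arrays are not shown to be paired. Of 18 same-number correlations 4 were over 0.1, beside 9 of 36 between other numbers, and 2 of 12 arrays matched their own number best. A slide term adds nothing to group terms, because each genotype has a slide of its own. Of 981 comparisons of the 9 genes with an alternative, 4 lost a call, all of G6pc, and 21 gained one, 10 of these with array weights. Another 35 changed sign, all of values that did not pass, and the cause was not tested.

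The number of genes that passed moved by more than 1.5 times under some settings. With only the 6 arrays compared it was 2441 in KO IRI against KO sham, 417 in WT IRI against WT sham, 4042 in KO sham against WT sham and 35 in KO IRI against WT IRI. With array weights, which lay between 0.112 for WT IRI 1 and 4.96 for KO sham 3, it was 5916 in KO IRI against KO sham, 8627 in WT IRI against WT sham, 9585 in KO sham against WT sham, 1930 in KO IRI against WT IRI and 1294 for unequal responses. KO IRI against WT IRI gave 329 with normexp and 279 with the replicate block. Unequal responses gave 37 with normexp, 10 with the filter on all 12 arrays, 9 with the mean of probes and 5 with the replicate block. Quantile normalization gave 805 higher and 819 lower in KO IRI against KO sham, where the planned analysis gave 546 and 1052, and 828 and 1093 in KO sham against WT sham, where it gave 1329 and 968. Without 1 array at a time the count ranged between 454 and 3250 in KO IRI against KO sham, 846 and 4675 in WT IRI against WT sham, 649 and 4405 in KO sham against WT sham, 146 and 971 in KO IRI against WT IRI, and 4 and 148 for unequal responses.

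Sign changes came with other probes, weights or scalings. In WT IRI against WT sham the mean of probes gave Pck2 -0.297 and Slc37a4 0.063, and array weights gave Slc37a4 0.063. In KO IRI against WT IRI, Pck1 was 0.037 with quantile normalization or the authors' values, and Slc37a4 was -0.06 with array weights. For unequal responses, Slc37a4 was 0.018 with normexp, 0.128 with quantile normalization and 0.129 with the authors' values, Fbp1 was 0.044 with both of these, Pcx was 0.115 and 0.113, and Slc2a2 was -0.183 with array weights. Without 1 array at a time, Pck1 ranged between -0.005 and 0.32 in KO IRI against KO sham. In WT IRI against WT sham, Pck2 ranged between -0.042 and 0.117, Fbp2 between -0.08 and 0.476, Slc2a2 between -1.516 and 0.174, Slc37a4 between -0.232 and 0.013 and Khk between -0.158 and 0.085. In KO IRI against WT IRI, Pck1 ranged between -0.186 and 0.043, Pck2 between -0.088 and 0.189, Slc2a2 between -0.052 and 1.637 and Slc37a4 between -0.03 and 0.215. For unequal responses, Slc2a2 ranged between -0.594 and 1.096 and Slc37a4 between -0.151 and 0.094.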
